A study of Mus musculus with 4 samples.

Results

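The genes described here encode voltage-gated sodium channel subunits and pacemaker channels of the mouse heart. They are the 7 rows of the deposited table whose gene names are Scn4a, Scn7a, Scn2b, Scn3b, Scn4b, Hcn2 and Hcn4, out of 55401 gene rows in all. Poly(A) RNA was sequenced from 2 Sham and 2 MI hearts at day 28. Sham hearts had a thoracotomy without ligation, and MI (myocardial infarction) hearts had a ligation operation. The labels name the tissue as heart and do not say which region was taken, nor the strain, sex or age of the mice. Whether replicates are separate animals is unstated, so each p-value reflects only the spread among these 4 libraries, and that spread may be technical.

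Voltage-gated sodium channels carry the fast inward current that starts the action potential of a working heart muscle cell. Each channel has a large pore-forming alpha subunit (the Scn genes ending in a), which is joined by small single-pass beta subunits (the Scn genes ending in b) that tune its gating and its place in the membrane. Pacemaker channels of the Hcn family open when the membrane is hyperpolarised, bind cyclic AMP and carry the funny current of the sinoatrial node, where Hcn4 is the main form, whereas Hcn2 is the form best known from the working ventricle.

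Of the 7 members, Scn4b, Scn4a and Hcn4 had lower levels in both MI libraries than in both Sham libraries, and Scn7a and Scn2b had higher levels in both. Scn3b and Hcn2 overlapped between the groups. These levels are CPM, counts scaled to a common library size, after trimmed-mean (TMM) scaling between libraries. The same separation was seen downward in 21.9% and upward in 24.9% of the 18475 genes tested. In edgeR's quasi-likelihood test, 0 members and 0% of all genes passed a Benjamini-Hochberg adjusted p under 0.05. At an unadjusted p under 0.05 in edgeR, 3 members were lower (Scn4b, Scn4a and Hcn4) and 1 was higher (Scn7a), where 4.51% of all genes (834) were lower and 7.12% (1316) higher. Scaled by library totals the split of all genes was 2315 higher and 296 lower, without mitochondrial transcripts 1967 and 432, scaled to cardiomyocyte markers 2082 and 284, and with limma on log2(FPKM + 1) 2223 and 336. DESeq2 called 1 member, Scn4b, lower at an adjusted p under 0.05, beside 1.61% of 14535 genes lower and 2.78% higher. The median log2 difference (MI minus Sham) of the members was 0.11, and that of all genes tested was 0.00.

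**Figure D1:**
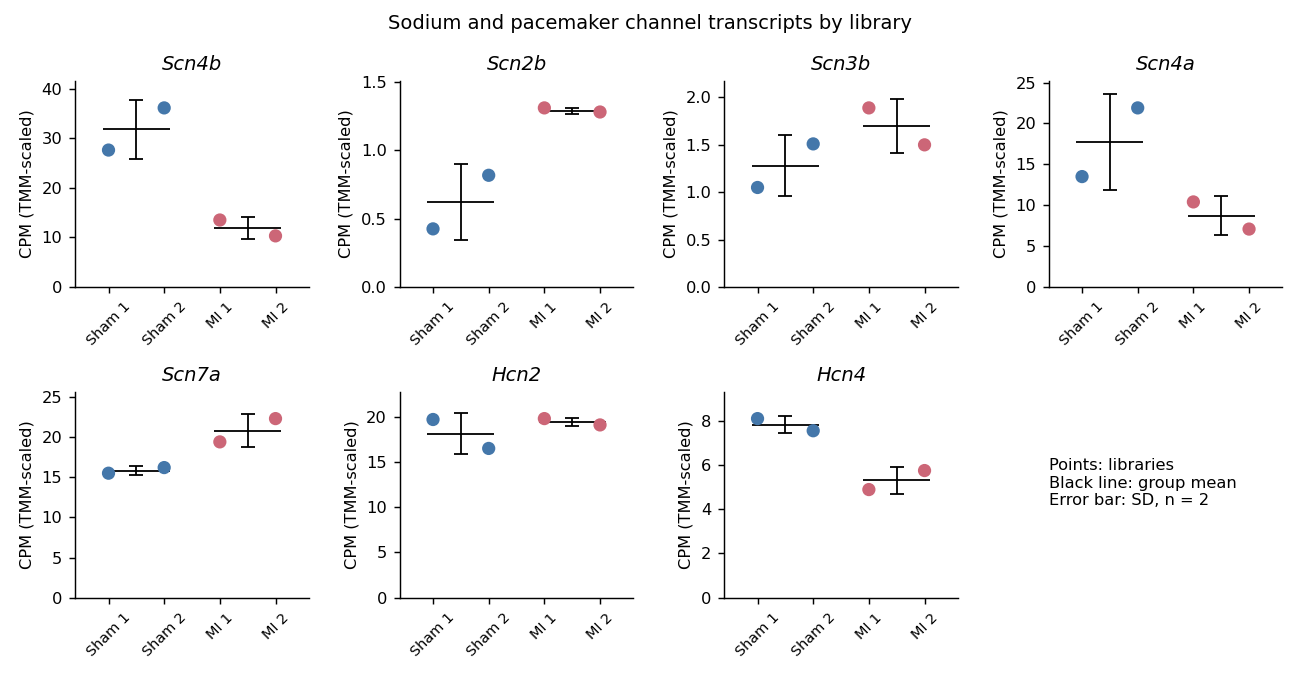
TMM-scaled CPM of each of the 7 genes (y axis, from 0) in the 4 libraries (x axis). Blue points are Sham, red points MI, black lines the group means and error bars the SD (n = 2). The MI points of Scn4b, 13.5 and 10.3 CPM, lie below its Sham points, 27.6 and 36.1 CPM.

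Libraries held 66624106 to 75979320 estimated counts. Low counts piled up at multiples of 4, so 4 counts appear to stand for 1 fragment and a count of 12 was taken as the floor per library. All 7 members passed the filter on low counts. Defining markers of heart muscle were abundant in every library (Myh6, Actc1 and Myl2 among them), with a summed FPKM over 14 cardiomyocyte markers of 18200, 19800, 18800 and 18900 in Sham 1, Sham 2, MI 1 and MI 2. FPKM is a level scaled for gene length and library size. Sham 2 and MI 1 stood apart. The atrial myosin light chain Myl7 was at 1128 FPKM in Sham 2 and at 0.46, 1.20 and 0.41 FPKM in Sham 1, MI 1 and MI 2. The 8 lung epithelial markers summed to 289 FPKM in MI 1 and to between 0.31 and 1.27 FPKM in the others. In bulk tissue, fewer cells of a type and less RNA per cell cannot be told apart.

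Scn4b encodes the beta-4 subunit, which is linked to its alpha subunit by a disulphide bond and is known for shaping resurgent sodium current. The gene (ENSMUSG00000046480) lies on the plus strand of chromosome 9, from 45138395 to 45154152 in the deposited table, coordinates that are the same in the GRCm38 annotation (GENCODE M21). It had 27.6 and 36.1 CPM in Sham 1 and Sham 2, and 13.5 and 10.3 CPM in MI 1 and MI 2. Both MI values were under the lower Sham value. The mean was 31.8 ± 5.96 CPM in Sham and 11.9 ± 2.27 in MI (SD, n = 2 each), so the level was 2.67-fold lower in MI, a log2 difference of -1.42 ± 0.22 (SE; 95% interval -2.0 to -0.84). The edgeR p was 0.00161, rank 129 of 18475 genes, with an adjusted p of 0.225. DESeq2 gave a log2 difference of -1.43 with an adjusted p of 2.16e-05, and limma on log2(FPKM + 1) gave -0.93 with an adjusted p of 0.282. The level in Sham 2, the library with atrial transcripts, was the highest of the 4. Without that library the log2 difference was -1.21, with an unadjusted edgeR p of 0.00358. Of 11 atrial markers tested, 1 was higher and 5 lower in MI at an unadjusted p (7.12% and 4.51% of all genes). Their summed FPKM was 159 and 5090 in Sham and 2650 and 1870 in MI. Most of the MI sums was Nppa, the natriuretic peptide gene, at 151 and 3515 FPKM in Sham and 2632 and 1855 in MI. The other 10 summed to 7.68 and 1570 FPKM in Sham and 17.8 and 12.9 in MI.

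Scn2b lies on the same strand of chromosome 9 (ENSMUSG00000070304, 45117782 to 45130070), with 8.3 kb between its end and the start of Scn4b. It encodes the beta-2 subunit, which like beta-4 is disulphide-linked to the alpha subunit. These neighbouring genes had opposite signs. Scn2b had 0.425 and 0.817 CPM in Sham 1 and Sham 2, against 1.31 and 1.28 CPM in MI 1 and MI 2, with no overlap. The log2 difference was 1.06 ± 0.51 (SE), with an edgeR p of 0.0975 and an adjusted p of 0.503, so it passed neither threshold in edgeR. With limma on log2(FPKM + 1) it was 0.19, with an unadjusted p of 0.0427 and an adjusted p of 0.346. Counts were low, at 27 and 53 in Sham and 109 and 99 in MI. At 4 counts per fragment these are about 7, 13, 27 and 25 fragments, and the exact 95% Poisson intervals (counting error only) were 2.81 to 14.4 for Sham 1 and 6.92 to 22.2 for Sham 2. MI 1 and MI 2 had 17.8 to 39.3 and 16.2 to 36.9, which overlap the interval of Sham 2. Gm10684, a noncoding gene on the opposite strand that spans all of Scn2b, had 0 counts in each library. Without Sham 1, the lowest library, the log2 difference of Scn2b was 0.66, and without Sham 2 it was 1.60.

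Scn3b (ENSMUSG00000049281, chromosome 9, 40269217 to 40291618) encodes beta-3, a subunit that associates with alpha subunits without a covalent bond. It had 1.05 CPM in Sham 1, 1.51 in Sham 2, 1.89 in MI 1 and 1.5 in MI 2, so the groups overlapped. The log2 difference was 0.40 ± 0.40 (SE), with a 95% interval from -0.64 to 1.44 and an edgeR p of 0.362. The depth, 67 to 158 counts, leaves both a lower and a higher level within that interval. These low beta subunits and Scn7a can be read beside neuron markers. Of 11 neuron markers tested, 2 were higher and 0 lower at an unadjusted edgeR p under 0.05 (7.12% and 4.51% of all genes). The neuron markers had a summed FPKM of 3.38 and 6.06 in Sham and 6.76 and 5.16 in MI, with Chat and Chrna3 among those at 0 in every library. Their part in these differences was not tested.

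Set against each other within a library, where scaling between libraries has no part, the 3 beta subunit members differed in make-up between the groups. Scn4b took 95.1% and 94.0% of their summed FPKM in Sham 1 and Sham 2, and 81.4% and 79.1% in MI 1 and MI 2. Scn2b took 1.49% and 2.32% in Sham against 8.31% and 10.7% in MI, and Scn3b 3.40% and 3.63% against 10.3% and 10.2%. For each of the 3 the groups did not overlap, and Scn4b had the largest share in every library. The shares of a library make up a whole, so a lower Scn4b level alone raises the other shares and the ratios to Scn4b. The level of Scn3b itself overlapped between the groups. The summed level of the 3 was 4.70 and 6.89 FPKM in Sham and 3.49 and 2.44 FPKM in MI. The FPKM ratio of Scn2b to its neighbour Scn4b was 0.0157 and 0.0247 in Sham and 0.102 and 0.135 in MI. The ratio of Scn3b to Scn4b was 0.0358 and 0.0386 in Sham and 0.127 and 0.130 in MI. No test was made of these shares and ratios, since an exact permutation test of 2 against 2 libraries cannot give a two-sided p under 0.33.

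**Figure D2:**
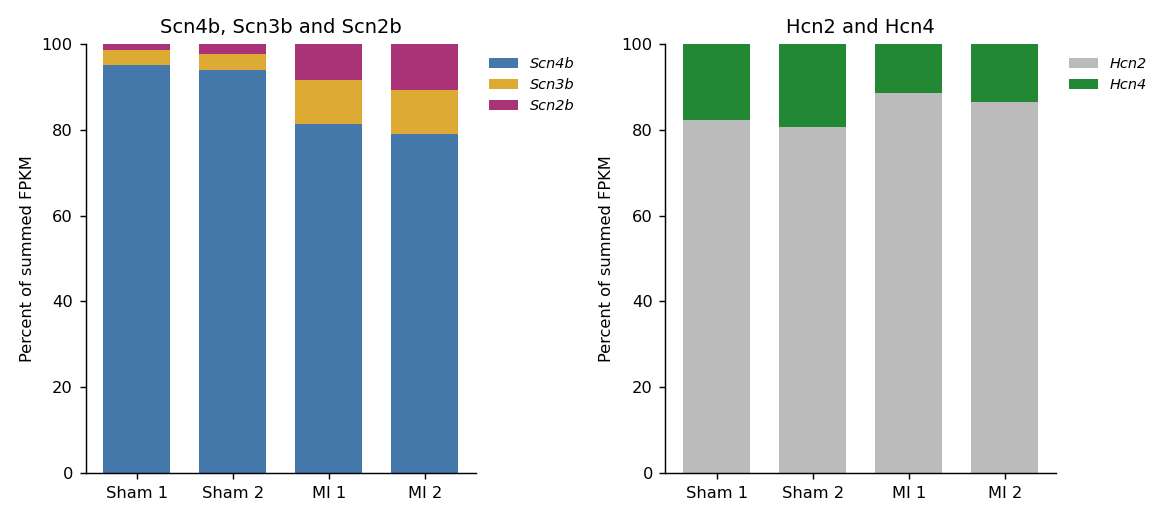
Share of each gene in the summed FPKM (y axis, percent) of Scn4b, Scn3b and Scn2b (left) and of Hcn2 and Hcn4 (right) in each library (x axis). The Scn4b band takes 95.1% and 94.0% in Sham and 81.4% and 79.1% in MI, and the Hcn4 band 17.7% and 19.3% against 11.5% and 13.6%.

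Scn4a encodes the alpha subunit of adult skeletal muscle, which heart expresses at a low level. The gene (ENSMUSG00000001027) lies on the minus strand of chromosome 11, from 106318592 to 106353288. It had 13.5 and 21.9 CPM in Sham 1 and Sham 2 and 10.4 and 7.08 CPM in MI 1 and MI 2, with the highest value in Sham 2. The mean was 17.7 ± 5.88 CPM in Sham and 8.74 ± 2.34 in MI (SD, n = 2 each), a log2 difference of -1.02 ± 0.32 (SE), with an edgeR p of 0.0265 and an adjusted p of 0.367 (DESeq2 adjusted p = 0.085). In FPKM the groups were separated only by 1.55 in Sham 1 against 1.54 in MI 1, and the log2 difference on the log2(FPKM + 1) scale was -0.48. Without Sham 2 the difference was -0.63 and without MI 2 it was -0.76, and the unadjusted edgeR p was then 0.0861 and 0.140. Of 11 fast skeletal muscle markers tested (16 in the table), 0 were at an unadjusted edgeR p under 0.05. Their summed level was 19.1 and 52.7 FPKM in Sham and 44.3 and 20.5 FPKM in MI, an order unlike that of Scn4a. The fast myosin heavy chains Myh1, Myh2 and Myh4 were at 0 to 0.01 FPKM in both Sham libraries and reached 0.59, 0.16 and 0.56 FPKM in MI 1. Myl1, the most abundant of the list, followed Scn4a in its peak, at 34.5 FPKM in Sham 2 against 8.25 to 16.4 FPKM in the others. Its part in the Scn4a difference was not tested.

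Scn7a encodes an atypical alpha subunit, a sensor of extracellular sodium that is known from glia and Schwann cells. The gene (ENSMUSG00000034810) lies on the minus strand of chromosome 2, from 66673425 to 66784914. It had 15.5 CPM in Sham 1, 16.2 in Sham 2, 19.4 in MI 1 and 22.3 in MI 2. The Sham values lay close together and both MI values were above them. The mean was 15.8 ± 0.54 CPM in Sham and 20.8 ± 2.08 in MI (SD, n = 2 each), 1.32-fold higher in MI, with a log2 difference of 0.40 ± 0.15 (SE). The edgeR p was 0.0495 and the adjusted p 0.428, and leaving out any 1 library gave an unadjusted p of 0.0658 to 0.243 with log2 differences of 0.30 to 0.50. MI 1, the library with lung transcripts, was the lower of the MI libraries for this gene. Of 13 Schwann and glial markers tested, 0 were higher and 1 lower at an unadjusted edgeR p under 0.05. Their summed FPKM was 5.01 and 7.74 in Sham and 9.12 and 6.61 in MI, with Pmp2 at 0 in all 4 libraries. Of 10 fibroblast markers, 7 were higher at an unadjusted p (7.12% of all genes). Both MI libraries were above both Sham libraries for 10 (24.9% of all genes). The fibroblast markers had a summed FPKM of 122 and 187 in Sham and 598 and 375 in MI. The part of these markers, and of the lung transcripts in MI 1, in the Scn7a difference was not tested.

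Within a library, the balance between the alpha subunit members also differed. The FPKM ratio of Scn7a to Scn4a was 1.10 in Sham 1, 0.712 in Sham 2, 1.79 in MI 1 and 3.02 in MI 2. So the order was mixed in Sham, where Scn7a was ahead in Sham 1 and Scn4a in Sham 2, while in both MI libraries Scn7a was ahead. Their summed level overlapped between the groups, at 3.25 and 4.76 FPKM in Sham and 4.30 and 3.78 FPKM in MI.

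The pacemaker channel Hcn4 (ENSMUSG00000032338, plus strand of chromosome 9, 58823412 to 58863175) had 8.10 CPM in Sham 1, 7.55 in Sham 2, 4.89 in MI 1 and 5.75 in MI 2. Both MI values were below both Sham values. The mean was 7.83 ± 0.39 CPM in Sham and 5.32 ± 0.61 in MI (SD, n = 2 each), 1.47-fold lower in MI, with a log2 difference of -0.56 ± 0.21 (SE). The edgeR p was 0.0440 and the adjusted p 0.419 (DESeq2 adjusted p = 0.309). Each fit without 1 library kept the sign, at -0.67 to -0.43, with unadjusted p from 0.0581 to 0.212. Scaled by library totals the log2 difference of Hcn4 was -0.33 (unadjusted edgeR p of 0.186), and limma on log2(FPKM + 1) gave -0.16 with an unadjusted p of 0.253. Hcn2 (ENSMUSG00000020331, plus strand of chromosome 10, 79716634 to 79736108) had 19.7 and 16.5 CPM in Sham and 19.8 and 19.1 CPM in MI. The groups overlapped, with a log2 difference of 0.11 ± 0.16 (SE; 95% interval -0.31 to 0.52), and the edgeR p was 0.535. In FPKM the Hcn2 groups did not overlap, at 4.96 and 4.61 in Sham and 6.47 and 5.59 in MI, so whether they separate depends on the scaling. Within a library, Hcn4 took 17.7% and 19.3% of the summed FPKM of Hcn2 and Hcn4 in Sham and 11.5% and 13.6% in MI. The ratio of Hcn4 to Hcn2 in FPKM was 0.216 and 0.239 in Sham and 0.130 and 0.157 in MI, without overlap.

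The stretches upstream of the RefSeq start are shown for Hcn2 and Hcn4, the related pair whose ratio differed, and for Scn2b, the neighbour of Scn4b with the opposite sign. The sequences are RefSeq windows on GRCm38.p6, where 6 of the 7 members matched (Scn3b did not). They run 5′ to 3′ on the gene's strand, and bases inside an annotated exon were left out. The intervals are chr10:79716384-79716633 and chr9:58822699-58822948, 250 bases each, and chr9:45117626-45117781, 156 bases, all on the plus strand. Capitals mark matches on either strand of 3 motifs, the GC box GGGCGG, the E-box CANNTG and the T-box half-site AGGTGT, none of which overlap here.
Hcn2: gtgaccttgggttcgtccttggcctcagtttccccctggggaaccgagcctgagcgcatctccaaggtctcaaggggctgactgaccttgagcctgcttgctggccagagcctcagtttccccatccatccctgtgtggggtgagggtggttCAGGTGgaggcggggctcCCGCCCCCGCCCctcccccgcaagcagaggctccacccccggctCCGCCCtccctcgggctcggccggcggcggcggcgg
Hcn4: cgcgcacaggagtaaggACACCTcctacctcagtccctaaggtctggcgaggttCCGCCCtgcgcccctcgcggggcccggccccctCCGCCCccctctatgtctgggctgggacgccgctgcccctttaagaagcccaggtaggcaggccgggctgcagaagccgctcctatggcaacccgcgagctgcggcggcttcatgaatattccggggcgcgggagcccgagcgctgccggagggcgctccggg
Scn2b: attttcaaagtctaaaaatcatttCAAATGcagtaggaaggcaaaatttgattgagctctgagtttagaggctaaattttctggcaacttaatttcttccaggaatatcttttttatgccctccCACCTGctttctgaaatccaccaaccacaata
The Hcn stretches were rich in G and C, with 70.4% and 71.2% GC and 16 and 25 CpG dinucleotides, against a median of 52.4% GC over 32851 RefSeq windows of 250 bases. The Scn2b window of 250 bases had 38.4% GC and 1 CpG, while that of Scn4b had 66.0% GC and 23 CpG. Over full windows of 250 bases, exons included, a GC box was in 3 of the 6 member windows (Hcn2, Hcn4 and Scn7a) and in 32.7% of all windows, an E-box in 3 (Hcn2, Scn2b and Scn7a) and in 66.2%, and the T-box half-site in 1 (Hcn4) and in 11.8%. The TATA box TATAAA (12.4% of all windows), AAGTG (40.7%) and the MEF2 motif (2.92%) had 0 matches in the member windows. These matches are descriptions of the letters in these windows.

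Compared per length, the order of the members differed between the groups. In Sham it ran from Scn4b at 5.47 ± 1.42 FPKM (SD, n = 2) and Hcn2 at 4.79 ± 0.25, whose library values overlapped, through Scn4a at 2.17 ± 0.87 and Scn7a at 1.84 ± 0.20, which overlapped too, to Hcn4 at 1.08 ± 0.02, and then to Scn3b at 0.205 and Scn2b at 0.115 FPKM, which met at 0.16. In MI, Hcn2 stood alone at the top with 6.03 ± 0.62 FPKM. Scn7a at 2.80 ± 0.06 and Scn4b at 2.38 ± 0.64 FPKM overlapped in second place, Scn4a was at 1.24 ± 0.42, Hcn4 at 0.86 ± 0.03, and Scn3b and Scn2b overlapped at 0.305 and 0.275 FPKM. Scn4b thus stood above 76.3% and 80.8% of all genes tested in Sham by FPKM, and above 61.1% and 55.2% in MI.

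**Figure D3:**
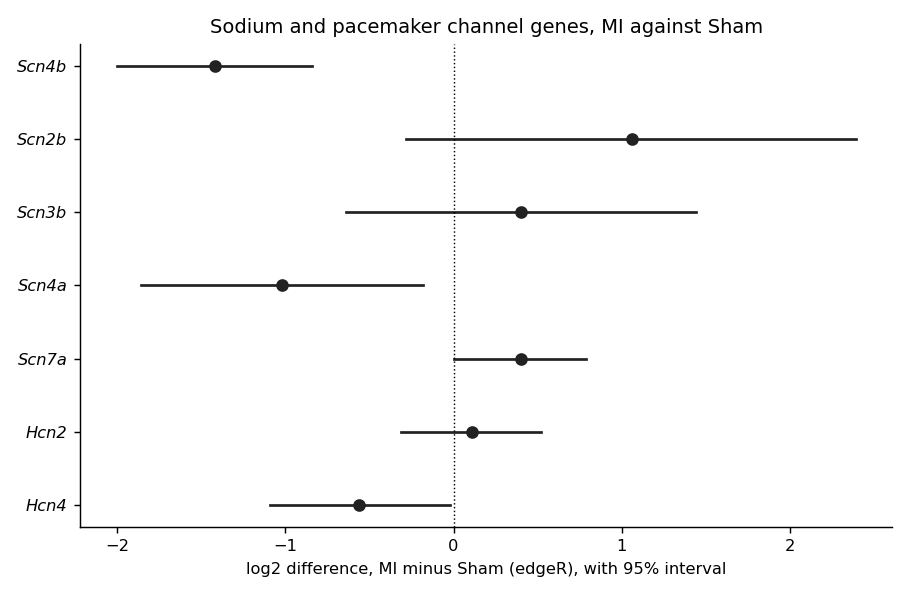
Log2 difference, MI minus Sham (x axis; edgeR, 0 at the dotted line), with its 95% interval, for the 7 genes. The interval of Scn4b runs from -2.0 to -0.84, and those of Scn2b, Scn3b and Hcn2 span 0.

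Of the 11 other Scn and Hcn rows in the table, 8 were tested, with a median log2 difference of 0.50, and at an unadjusted edgeR p under 0.05 there were 1 higher and 1 lower (7.12% and 4.51% of all genes). The lower one was Scn10a, an alpha subunit of sensory neurons, with 1.62 and 3.82 CPM in Sham and 0.911 and 0.451 CPM in MI. Its edgeR p was 0.0254 and its adjusted p 0.363, and limma on log2(FPKM + 1) gave an unadjusted p of 0.0944. The counts of Scn10a were low, at 103 and 248 in Sham and 76 and 35 in MI. They peaked in Sham 2, the library with atrial transcripts. The higher one was Scn2a, a neuronal alpha subunit chosen after its value was seen, with 12 and 15 counts in Sham and 93 and 67 in MI. Its edgeR p was 0.0106 and its adjusted p 0.327. The Sham counts of Scn2a stand at or just above the floor of 12 counts. Scn3a, an embryonic neuronal form, had a log2 difference of 0.52 ± 0.32 (SE), and its edgeR p was 0.165.

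Genes that act with these channels had log2 differences of both signs, and how many were lower moved with the test used. Over 3 lists of sodium channel partners, Hcn partners and other sodium transport genes, 41 of 43 genes were tested. At an unadjusted edgeR p under 0.05, 4 were higher and 7 lower (7.12% and 4.51% of all genes), and 0 passed at an adjusted p. The median log2 difference was -0.18. With limma on log2(FPKM + 1), 5 were higher and 1 lower at an unadjusted p, and Camk2d, Bves and Cacna1d then had -0.17, -0.13 and -0.13 with an unadjusted p of 0.340, 0.367 and 0.167. Among 15 sodium channel partners (3 higher, 4 lower), the caveolin of muscle Cav3 and the kinase gene Camk2d had log2 differences of -0.55 ± 0.17 and -0.48 ± 0.13 (SE), while the scaffold Dlg1 had 0.58 ± 0.18 and the 14-3-3 protein Ywhah 0.39 ± 0.12. Among 15 Hcn partners and pacemaker current genes (1 higher, 3 lower), the cyclic AMP binding proteins Popdc2 and Bves had -0.60 ± 0.13 and -0.36 ± 0.12, the pacemaker calcium channel Cacna1d had -1.20 ± 0.43 and the actin crosslinker Flna 0.51 ± 0.18. Cacna1d was low, with 176 and 307 counts in Sham 1 and Sham 2 and 167 and 98 in MI 1 and MI 2. It peaked in Sham 2, the library with atrial transcripts. DESeq2 called Popdc2 lower (adjusted p = 0.00348). Of 11 other sodium transport genes tested 0 passed.

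Markers of the conduction system were read beside Hcn4. Of 10 sinoatrial node markers tested, 2 were higher and 1 lower at an unadjusted edgeR p under 0.05, 7 had negative log2 differences, and the median was -0.41. Both MI libraries were below both Sham libraries for 1 of these markers and above for 2. Over all genes tested, 7.12% were higher and 4.51% lower at that p, and the separations were seen in 21.9% (below) and 24.9% (above). The node markers had a summed FPKM of 9.37 and 11.7 in Sham and 15.8 and 14.1 in MI. Of this, Smoc2 alone gave 5.98 and 7.28 in Sham and 12.01 and 10.34 in MI. The other 10 summed to 3.39 and 4.44 FPKM in Sham and 3.77 and 3.76 in MI. The defining node factors were low, with Isl1 at 0 to 0.02 FPKM over the 4 libraries. Shox2 had 0.05 and 0.54 FPKM in Sham 1 and Sham 2 and 0.17 and 0.21 in MI. Cpne5 and Vsnl1 peaked in Sham 2 too, the library with atrial transcripts, at 163 and 95 counts against 12 to 48 in the others. Hcn4 did not peak there, at 8.10 and 7.55 CPM in Sham 1 and Sham 2. Tbx18, another node factor, had 0.45 and 0.42 FPKM in Sham and 0.94 and 0.76 in MI. Tbx3, a node and conduction factor, had 13.6 and 7.13 CPM in Sham and 7.42 and 9.74 CPM in MI. Of 10 ventricular conduction markers 0 were higher and 2 lower. Of 14 cardiomyocyte markers 0 were higher and 2 lower, and both MI libraries were below both Sham libraries for 7, with a median log2 difference of -0.18. Counts were also scaled so that the median log count of the 14 cardiomyocyte markers was level in every library, which leaves single markers unlevel. The log2 difference of the median gene was then 0.24. The members' log2 differences were -1.16 for Scn4b, -0.76 for Scn4a and -0.33 for Hcn4, and 0.35 for Hcn2, 0.63 for Scn7a, 0.65 for Scn3b and 1.29 for Scn2b. Scn4b then had an unadjusted edgeR p of 0.00841, and Scn4a and Hcn4 no longer had one under 0.05 (0.0966 and 0.250). Relative to the median of all genes, these differences were -1.41, -1.0, -0.57, 0.11, 0.38, 0.41 and 1.05 in the same order.

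The likeness of a profile was measured as the Euclidean distance between centred log2(CPM + 0.5) values over the 4 libraries, among 157 family, partner and marker genes. Tbx5, a transcription factor of heart, and Cacna1d were the nearest pair both for Scn4b (distances 0.292 and 0.466) and for Scn4a (0.464 and 0.0194). Tbx5 had 27.1 and 32.6 CPM in Sham and 13.4 and 12.4 CPM in MI. Like Scn4b and Scn4a, both Tbx5 and Cacna1d were highest in Sham 2, the library with atrial transcripts. Nearest to Hcn4 were the heart muscle genes Tnnt2 (0.135) and Atp2a2 (0.152), and among those nearest to Hcn2 was Actn3 (0.147), whose counts are near the floor. Scn7a was nearest to Nefm (0.102) and to the fibroblast receptor gene Pdgfra (0.139), Scn2b to Stmn2 (0.163), and Scn3b to the endothelial cadherin gene Cdh5 (0.124) and Slc8a1 (0.188). Nefm was low, at 0.409 and 0.524 CPM in Sham and 0.683 and 0.929 CPM in MI, and Scn2b was low too. At such levels the 0.5 added to each CPM narrows the differences between libraries, so these 2 profiles are flattened. With 4 libraries such distances describe these libraries only.

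**Figure D4:**
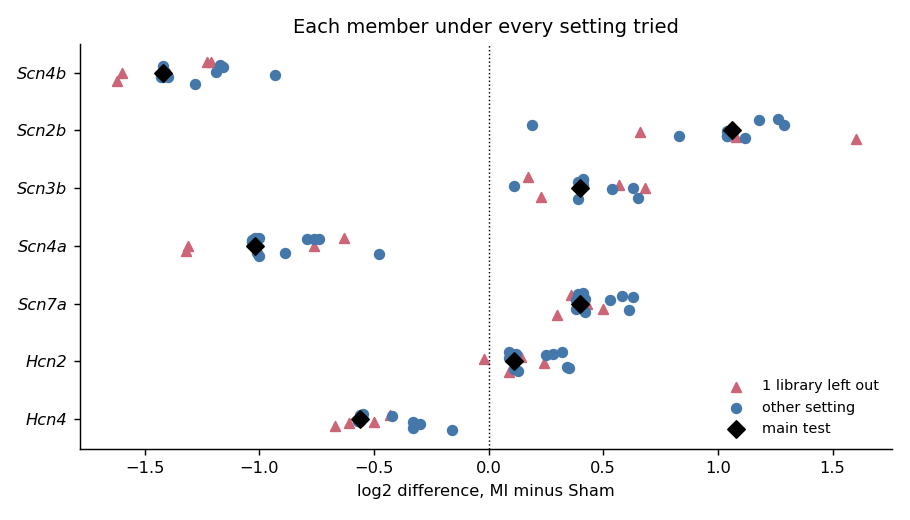
Log2 difference, MI minus Sham (x axis), of each member in the main edgeR test (black diamonds), without 1 library (red triangles) and under the other settings (blue circles). Scn4b runs from -1.62 to -0.93, and Hcn2 is the member whose values fall on both sides of 0.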

How the data were processed

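The deposited table gives an estimated count and an FPKM per gene and library. The deposited estimated counts are whole numbers and were used as they stand. The deposited FPKM values are levels per kilobase and library size, named so per the file headers. StringTie 1.3.4d, HISAT2 2.0.4, UMI-tools and cutadapt 1.9 are named in the submitters' processing notes, without role or order. Genome build and use of strand in counting: not given in the sources used here. GENCODE M21 (GRCm38) holds 99.5% of the table's gene identifiers. No stretch of 75 bases in a member's GENCODE transcripts occurs in another gene's.

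Genes with low counts were removed (edgeR's filterByExpr, minimum count 10 and total 15), and counts were scaled by TMM (factors 0.877 to 1.15) and tested with edgeR 4.0.16 in R 4.3.3 (quasi-likelihood, group as the only term, two-sided, all 18475 genes adjusted together). The steps were tested on simulated data whose log2 differences were larger than those of the members, so detection at the members' sizes was not tested. Alternatives used DESeq2 1.42.0, limma 3.58.1 on log2(FPKM + 1) or log2(FPKM + 0.1), other scalings and filters, counts divided by 4, each library left out and a replicate block. Total counts were 66624106 to 75979320 per library. The Poisson intervals of the fragment numbers cover counting error only, while the intervals of the log2 differences belong to the edgeR fit. Groups came from the sample titles.

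The members and lists were chosen with earlier results of these data known. Named were all members, family rows with a mean of at least 0.1 FPKM, up to 4 partner genes per list by smallest p plus the most abundant, up to 3 abundant markers per list and the 2 nearest profiles per member. Other genes named, such as defining markers at or near 0, were chosen after their values were seen. Some genes that this rule selects are not reported here, and shares within a library were taken over the members alone instead of whole families.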

Additional observations from a re-analysis of the deposited data

How the results depend on the processing

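The signs of Scn4b, Scn4a, Hcn4, Scn7a, Scn2b and Scn3b were the same under all alternatives in which they were tested, and Scn4b had an unadjusted p under 0.05 in all 15, with log2 differences of -1.62 to -0.93 and adjusted p from 2.16e-05 to 0.991. Hcn2 had -0.02 without Sham replicate 2 and -0.02 to 0.24 over the fits without 1 library. Members called at an adjusted p numbered 0 in edgeR and 1 with DESeq2. Members higher at an unadjusted p numbered 1 in the main test, 2 with limma on log2(FPKM + 1), and 0 with DESeq2, with its size factors (RLE) in edgeR, with counts divided by 4 and with the replicate block. They numbered 0 to 1 without 1 library. Members lower at an unadjusted p numbered 3 in the main test, 1 with limma at either pseudocount, 1 with library totals, 1 without mitochondrial transcripts and 1 scaled to cardiomyocyte markers. They numbered 1 to 2 without 1 library. With the replicate block 2 members were lower. Members with both MI libraries above both Sham libraries numbered 2 in the main scaling, 4 with library totals, 4 without mitochondrial transcripts and 4 scaled to cardiomyocyte markers. At a mean FPKM of at least 1 the number was 1, of 4 members tested. Without 1 library it was 2 to 4, where 1 library alone stood for its group. Members with both MI libraries below both Sham libraries numbered 3 in the main scaling and 3 without mitochondrial transcripts. They numbered 2 with library totals and 2 scaled to cardiomyocyte markers. With library totals the groups of Scn4a overlapped, at 861 counts in Sham 1 and 867 in MI 1. The share of all genes with either separation was taken in the main scaling only, so these numbers have no such share beside them. Against the main scaling, library totals and the removal of mitochondrial transcripts gave the median gene a log2 difference of 0.23 and 0.14. Over all genes, edgeR called 0 at an adjusted p, DESeq2 638, scaling to cardiomyocyte markers 1, and leaving out 1 library 0 to 14. At an unadjusted p, 432 to 1917 genes were higher and 378 to 1209 lower without 1 library. Among other family rows, higher ones numbered 0 to 2 and lower ones 0 to 2 without 1 library, and lower ones 0 in limma. Among partners, DESeq2 called 1, limma had 1 lower, and without 1 library 1 to 5 were higher (1 without Sham 1 and 1 without MI 1) and 1 to 9 lower (1 without MI 1 and 1 without MI 2). The Scn4b share of the beta subunit members differed (MI minus Sham) by -14.3 percentage points in FPKM, -14.6 in counts and -15.5 to -13.2 without 1 library, and the Hcn4 share of Hcn2 and Hcn4 by -5.96, -8.82 and -7.01 to -4.90. The check for pairing by replicate number gave a correlation of -0.0561. It rests on 1 deviation per group, and Sham 2 held atrial and MI 1 lung transcripts, so it cannot decide whether the libraries are paired. The main test did not pair them, and the replicate block was the alternative. With the replicate block, 1002 genes were higher and 552 lower at an unadjusted p, against 1316 and 834. The cause of these shifts was not tested. Leaving out libraries for the shares was chosen after seeing the data. Low counts limit Scn2b and Scn3b, and 2 libraries per group limit every comparison.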
